A study of Rattus norvegicus with 4 samples.

Results

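Ion channel subunit genes were examined in RT4D6 cells, a rat Schwannoma line. Schwann cells are the glia that ensheath axons in peripheral nerves. The genes were taken by symbol, as those of potassium (Kcn), sodium (Scn), calcium (Cacn) and chloride (Clcn) channels and of the TRPC, TRPM and TRPV families (Trpc, Trpm, Trpv), and were selected on signal, since a probe set had to reach the median of its array at least 2 times in 4 arrays. Of 134 such genes on the array, 30 passed, out of 9165 genes that passed in all. Each gene is given by 1 probe set, chosen for its highest mean on the log2 scale. A gene with this kind of symbol need not make a pore: Trpc4ap is named for its binding to a TRP channel and belongs to a ubiquitin ligase.

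Arrays of 2 groups were compared, 2 in each. RT4D6 cells received the wild type siRNA, which is specific for Sox10, or a mutant siRNA as control, and RNA of both was taken after 48 h. Nothing else differs between the groups in the sample labels. The study describes independent pairs of cell samples, all of 1 cell line. The p-values rest on the spread between the 2 samples of a group. In limma, the test used here, this spread is moderated by that of probe sets of similar brightness. The values are MAS5 signals, the brightness of a probe set on a linear scale. A log2 fold change is wild type minus mutant siRNA, and a gene is called at an adjusted p under 0.05 from limma. The number of arrays limits the precision.

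Ion channels are proteins of membranes that let ions pass down their gradients. Voltage-gated potassium, sodium and calcium channels open when the membrane is depolarized, and their auxiliary subunits change gating and transport to the surface. Several Clcn proteins exchange chloride for protons in endosomes and lysosomes, and most TRP channels pass calcium and other cations in response to heat, swelling or lipids. Schwann cells carry potassium and sodium channels, although they do not fire as neurons do, and are known to use calcium signals.

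Sox10 itself, which the siRNA targets, had 163.4 and 335.4 with the wild type siRNA, against 2872.6 and 2890.1 with the mutant siRNA (log2 fold change -3.54, standard error 0.33, adjusted p = 0.00130). The array medians were between 101.3 and 110.4, and the 25th percentile, near background, was between 26.2 and 31.0. Of 10 markers of Schwann cells and glia that were tested, 9 were lower and none was higher. Their summed signal was 6314 and 6507 with the wild type siRNA, against 35378 and 25369 with the mutant siRNA. Of 10 markers of smooth muscle, 6 were tested, of which 4 were called higher and none was called lower. An unadjusted p under 0.05 was found for 5, of which Smtn went the other way. Smtn had 279.8 and 400.5 with the wild type siRNA, against 521.9 and 770.5 with the mutant siRNA (log2 fold change -0.84, adjusted p = 0.0633). The sum of all 10 markers was 47670 and 66067 with the wild type siRNA, against 16077 and 26071 with the mutant siRNA. Cnn1, Des, Lmod1 and Tpm2 did not reach the filter. Of 10 neuron markers, 3 were tested and none was called by limma, also at an unadjusted p under 0.05, with sums of 784.1 and 890.4 against 1067 and 930.8. Of 7 fibroblast markers, 2 were tested and none was called, although 2 had an unadjusted p under 0.05, with sums of 2099 and 3423 against 1727 and 1613. No immune or endothelial marker was bright enough to test, with sums of 317.8 and 243.6 against 73.2 and 154.4. The part of these markers in the results below was not tested, and fewer cells of a type and less RNA per cell cannot be told apart in such samples.

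Most channel genes were dim in these cells. The share that passed the filter was 22.4% (30 of 134), against 64.5% of all 14217 genes with a single symbol. It differed by class. Of 62 pore-forming potassium channel genes, 5 passed (8.06%), and of 13 auxiliary potassium channel genes, 2. Of 12 sodium channel genes 3 passed and of 24 calcium channel genes 6. By contrast, 5 of 7 chloride channel genes and 9 of 16 TRP genes passed. As probe sets differ in how brightly they bind, a dim signal is not evidence that a gene is silent, and these shares describe the array and the cells together.

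**Figure D1:**
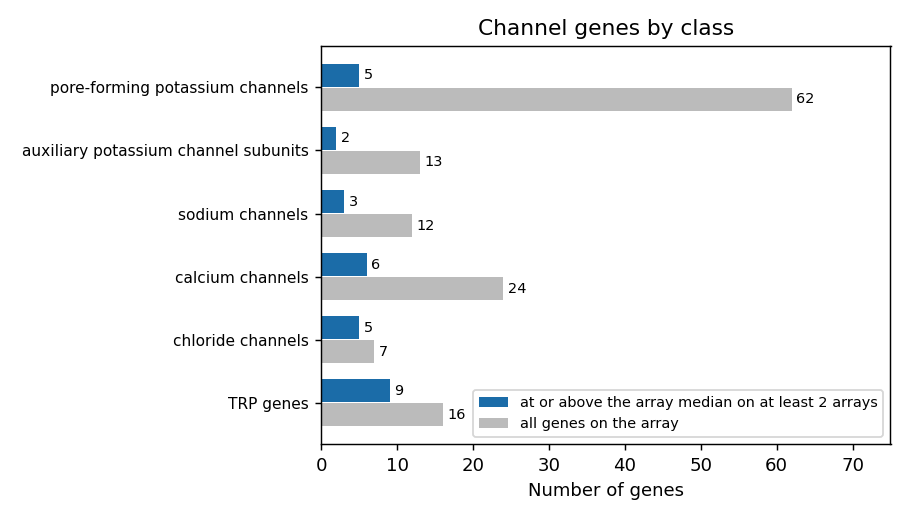
Number of genes (x axis) in each class of channel genes, blue where the gene reached the array median on at least 2 arrays and grey for all genes of the class on the array. Only 5 of 62 pore-forming potassium channel genes reached it, against 5 of 7 chloride channel genes and 9 of 16 TRP genes.

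Among the 104 genes that did not pass were several known from glia or muscle, named here for that and not for their values. Kcnj10, the inward rectifier of glial cells, had signals of 3.1 and 20.4 with the wild type siRNA, against 4.0 and 52.0 with the mutant siRNA. Kcna1 and Kcna2 are voltage-gated potassium channels found near nodes of Ranvier. Kcna1 had 3.1 and 2.9 with the wild type siRNA, against 3.5 and 11.6 with the mutant siRNA, and Kcna2 had 103.0 and 30.1 against 52.0 and 41.1. Kcnma1, the large conductance calcium-activated channel that is abundant in smooth muscle, had 26.8 and 3.0 with the wild type siRNA, against 3.8 and 29.0 with the mutant siRNA. All of these lay below the array median on every array, and they were not tested.

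The filter took Kcnj11, the pore of the ATP-sensitive potassium channel, as the last member inside it, with a second highest signal 1.016 times the array median. Kcnq5, a voltage-gated potassium channel, was the first outside, at 0.914 times. Its signals were 73.8 and 62.6 with the wild type siRNA, against 176.3 and 100.9 with the mutant siRNA. Of the 30 members, 25 passed through arrays of both groups. Kcna4 and Trpv2 passed only through the wild type siRNA arrays, and Cacna1c, Kcnj11 and Kcnn3 only through the mutant siRNA arrays. For these 5 a difference between the groups was favoured by the choice, and they lend no support to a count.

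Of the 30 genes, 3 were lower with the wild type siRNA (Trpv4, Trpc4ap and Trpc2) and 1 was higher (Trpv2). All of them are TRP genes by symbol. Over all genes tested, 10.6% were lower and 17.3% were higher, 28.0% in either direction, against 13.3% of the members (4 of 30). The division into lower and higher depends on the scaling, with 12.4% of all genes lower and 14.2% higher for the signals as deposited and 11.9% and 14.7% after quantile normalization. Among the 25 members that passed through both groups 3 were called (12.0%), against 27.5% of all genes that passed in this way. The channel genes were also measured with less precision. Their median standard error was 0.43 on the log2 scale, against 0.23 for all genes, and 24 of the 30 belong to the dimmer 50% of the genes tested, where 23.4% were called. The median log2 fold change of the members was -0.22, against 0.20 for all genes. Of the members 18 were below 0 and 12 above, and this division was the same with the signals as deposited and with quantile normalization. The groups of arrays did not overlap for 14 of these 25 members, or 56.0%, against 66.9% of all genes that passed through both groups. Over all 30 members this was 63.3%, against 68.1% of all genes, but for the other 5 it was largely set by the filter.

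Trpv4 had the largest difference of the members called. This cation channel passes calcium and is opened by cell swelling, warmth and lipids. Its signals were 72.0 and 177.3 with the wild type siRNA, against 998.5 and 722.8 with the mutant siRNA. Both mutant siRNA arrays lay far above both wild type siRNA arrays, of which the lower was below the array median. The mean signals were 125 ± 74.5 and 861 ± 195 (SD, n = 2 each). The log2 fold change fitted to the centred log2 signals was -2.83, or 7.12-fold lower (standard error 0.43, 95% interval -3.82 to -1.85, adjusted p = 0.00404). It lay between -3.51 and -2.15 with each array left out, and was called in all of these fits.

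Trpc4ap fell with the smallest standard error of the members called. It is the substrate adaptor of a ubiquitin ligase, found by its binding to a TRPC channel and a tumour necrosis factor receptor. It had 481.8 and 520.8 with the wild type siRNA, against 1497.4 and 1601.2 with the mutant siRNA. The 2 arrays of each group were close together and the groups well apart. The mean signals were 501 ± 27.6 and 1549 ± 73.4 (SD, n = 2 each). The fitted log2 fold change was -1.55, or 2.93-fold lower (standard error 0.20, 95% interval -2.01 to -1.09, adjusted p = 0.00268). It was called with each array left out, between -1.63 and -1.47.

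The bases upstream of Trpv4 and Trpc4ap are shown because these genes fell with every array left out. The study looked for the core that Sox proteins bind in a longer region, up to the end of the first intron. It also filtered its sites by conservation across species. The window here covers only part of that region, and conservation was not examined. The search here used ACAAT or its complement ATTGT, that is, both strands, in the 250 bases before the annotated start of RefSeq on the assembly GRCr8, and a match is in capitals. Trpv4 lies on the plus strand (chr12:47598938-47599187) and has no match, and Trpc4ap lies on the minus strand (chr3:164653124-164653373) and has 1, which begins 116 bases before the start.
Trpv4: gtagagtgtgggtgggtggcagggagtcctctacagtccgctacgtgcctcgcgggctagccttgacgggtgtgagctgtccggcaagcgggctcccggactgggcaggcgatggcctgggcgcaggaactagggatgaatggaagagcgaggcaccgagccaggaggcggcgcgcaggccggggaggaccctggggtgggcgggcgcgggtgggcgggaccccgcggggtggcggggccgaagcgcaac
Trpc4ap: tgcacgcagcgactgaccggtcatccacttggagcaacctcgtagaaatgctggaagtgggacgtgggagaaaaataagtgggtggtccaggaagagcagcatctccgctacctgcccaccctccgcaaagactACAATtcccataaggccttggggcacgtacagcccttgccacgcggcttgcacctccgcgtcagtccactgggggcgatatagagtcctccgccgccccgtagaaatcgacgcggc

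Such a core is common in stretches of this length. It was found in 30.0% of 33469 promoters in the table, and in 5 of the 23 members (21.7%) that were matched there by symbol: Cacnb3, Clcn3, Clcn7, Trpc4ap and Trpm7. Trpc2 and Trpv2 had none. The first share counts promoters and the second genes, so they are not the same measure. Clcn3 had a promoter with the core and another without it. No match says only that these letters are not in this window.

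Trpc2, a cation channel that serves pheromone detection in the vomeronasal organ of rodents, was lower by a narrow margin. It had 192.6 and 230.9 with the wild type siRNA, against 480.2 and 360.5 with the mutant siRNA, and the groups did not overlap. The log2 fold change was -0.90, or 1.87-fold lower (standard error 0.29, 95% interval -1.56 to -0.25, adjusted p = 0.0484). The call was lost without wild type siRNA replicate 1 (adjusted p = 0.141), without mutant siRNA replicate 1 (adjusted p = 0.260) and without mutant siRNA replicate 2 (adjusted p = 0.0841). With all arrays kept, the call was also lost with the 25th percentile as a pseudocount (adjusted p = 0.0512). It was lost too without a filter on low signals (adjusted p = 0.0921) and without the intensity trend of limma (0.0734). Trpc2 overlaps its neighbour Xndc1 in the RefSeq annotation, so which of them gave the signal is uncertain.

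Trpv2, a calcium-permeable channel opened by strong heat and stretch, was the only member called higher. It had 252.7 and 218.3 with the wild type siRNA, against 29.2 and 98.8 with the mutant siRNA. Both mutant siRNA arrays were below the array median, and replicate 1 (29.2) was close to its 25th percentile, so that the size of the change is not established. Trpv2 thus entered the test only through the wild type siRNA arrays, and its difference was favoured by the filter. The log2 fold change was 2.21 (standard error 0.61, 95% interval 0.81 to 3.61, adjusted p = 0.0311). Without the intensity trend of limma the adjusted p was 0.0607. The call was lost without wild type siRNA replicate 1 (adjusted p = 0.0998), without wild type siRNA replicate 2 (adjusted p = 0.0504) and without mutant siRNA replicate 1, where the log2 fold change was 1.35 (adjusted p = 0.0842).

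The other TRP genes did not pass the test. Trpc1, a subunit of receptor-operated cation channels, had 41.8 and 138.7 with the wild type siRNA, against 192.5 and 197.2 with the mutant siRNA (log2 fold change -1.28, 95% interval -2.66 to 0.10, adjusted p = 0.145). The groups did not overlap, but the wild type siRNA arrays were far from each other. It passed without wild type siRNA replicate 2 (adjusted p = 0.0130), at -2.17. Trpm7, a channel joined to a kinase that serves magnesium uptake, had 1154.4 and 1276.6 with the wild type siRNA, against 1666.5 and 1448.3 with the mutant siRNA (log2 fold change -0.28, 95% interval -0.73 to 0.18, adjusted p = 0.323), and a second probe set was at -0.16. Trpm4, a calcium-activated channel for sodium and potassium, was at -0.13 (95% interval -0.89 to 0.63), and its direction turned without mutant siRNA replicate 1 (0.23) and without wild type siRNA replicate 2 (0.02). Trpm1, known from melanocytes and retina, and Trpv5, a calcium channel of kidney epithelium, had log2 fold changes of 0.15 and 0.14, with signals between 65.5 and 166.5.

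**Figure D2:**
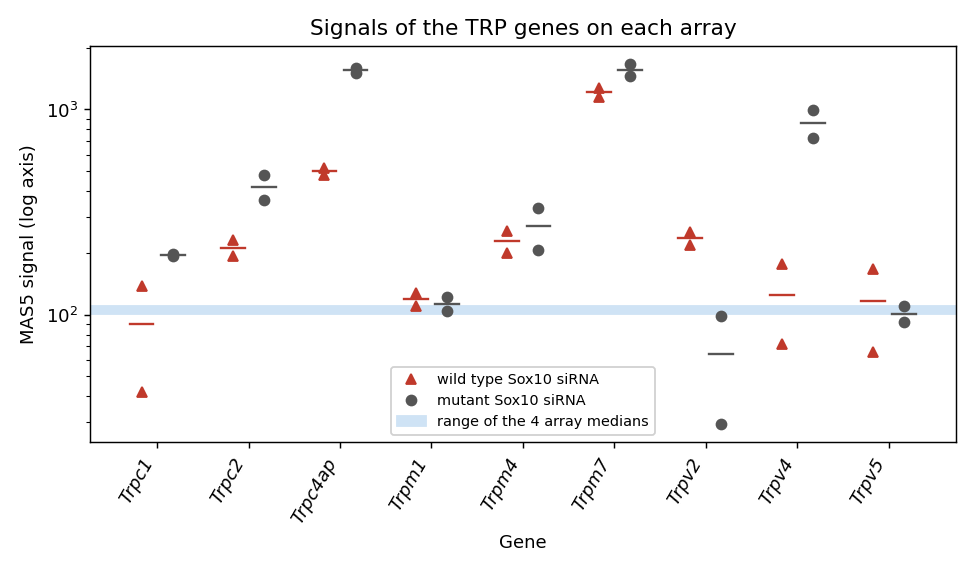
MAS5 signal (log axis) of the 9 TRP genes tested, on each array. Red triangles are the 2 wild type siRNA arrays, grey circles the 2 mutant siRNA arrays, lines the mean of each group and the blue band the range of the array medians, 101.3 to 110.4. Trpv4, Trpc4ap and Trpc2 lie lower and Trpv2 higher with the wild type siRNA, with no overlap.

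None of the 3 sodium channel genes was called by limma, although 2 had an unadjusted p under 0.05. Scn7a, the channel Nax, which responds to sodium levels and is known from Schwann cells, came closest. It had 917.4 and 814.2 with the wild type siRNA, against 3121.9 and 1300.8 with the mutant siRNA. Both mutant siRNA arrays were above both others, but differed from each other by more than the wild type siRNA arrays did. The log2 fold change was -1.14 (standard error 0.37, 95% interval -1.98 to -0.30, adjusted p = 0.0506). Its side of the threshold depended on the processing. It passed with the signals as deposited (adjusted p = 0.0342), after quantile normalization (adjusted p = 0.0351) and with 3 other treatments of dim signals, of which the largest adjusted p was 0.0458. It did not pass with the 25th percentile as a pseudocount (adjusted p = 0.0512), without a filter on low signals (0.0590) or without the intensity trend of limma (0.133). It also passed without mutant siRNA replicate 2 (-1.79, adjusted p = 0.0106), but was -0.49 without mutant siRNA replicate 1 (adjusted p = 0.252).

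Scn1a, a voltage-gated sodium channel of neurons, had 108.7 and 61.3 with the wild type siRNA, against 189.9 and 252.5 with the mutant siRNA. The groups did not overlap, with the wild type siRNA arrays near or below the array median. The log2 fold change was -1.34 (standard error 0.44, 95% interval -2.36 to -0.33, adjusted p = 0.0550). It passed with the signals as deposited (adjusted p = 0.0467) and with 3 other treatments of dim signals, of which the largest adjusted p was 0.0468. It did not pass after quantile normalization (adjusted p = 0.0543), without a filter on low signals (0.113) or without the intensity trend of limma (0.0550). With each array left out the log2 fold change lay between -1.73 (without wild type siRNA replicate 1) and -0.96 (without wild type siRNA replicate 2). Scn10a, known from sensory neurons, had 137.7 and 56.5 against 113.6 and 108.1, and these groups overlapped.

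Of the 6 calcium channel genes none was called, and none had an unadjusted p under 0.05. Cacng2, also known as stargazin, an auxiliary subunit better known for its role with AMPA receptors, had 44.2 and 132.0 with the wild type siRNA, against 153.7 and 278.2 with the mutant siRNA. The fitted difference was -1.36 (log2, standard error 0.60, 95% interval -2.74 to 0.02, adjusted p = 0.126). It passed without wild type siRNA replicate 2 (-2.17, adjusted p = 0.0153). Cacna1c, the pore of the L-type channel of muscle and neurons, had 87.9 and 60.3 against 134.4 and 138.0 (log2 fold change -0.82, 95% interval -1.97 to 0.32, adjusted p = 0.245). Cacna1a, the pore of the P/Q-type channel, had 137.1 and 101.3 against 147.7 and 253.7 (adjusted p = 0.277). In all 3 genes both wild type siRNA arrays were below both mutant siRNA arrays. For Cacna1c, which passed only through the mutant siRNA arrays, this was largely set by the filter. Groups of arrays did not overlap for 66.9% of all genes that passed through both groups. The beta subunits Cacnb1, Cacnb2 and Cacnb3, which carry the pore to the surface, were at -0.20, 0.45 and 0.12, with overlapping groups.

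The 5 chloride channel genes also gave no call, with 1 unadjusted p under 0.05. Clcn3, an exchanger of endosomes, had 3522.6 and 3675.7 with the wild type siRNA, against 3193.3 and 2578.9 with the mutant siRNA, and the log2 fold change was 0.41 (95% interval -0.02 to 0.83, adjusted p = 0.132). Its other 3 probe sets were at 0.58, 0.34 and 0.10, none called. Clcn7, the lysosomal exchanger, had 428.8 and 335.3 against 220.2 and 287.3, at 0.67 (95% interval 0.05 to 1.29, adjusted p = 0.100). Clcn4, a further endosomal exchanger, had 2165.9 and 2162.6 against 3026.2 and 2044.7, at -0.12 (95% interval -0.64 to 0.39), and was at 0.18 without mutant siRNA replicate 1. Clcn2, a channel of the plasma membrane, was at 0.16.

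Probe sets disagreed for Clcn6, an exchanger of late endosomes. Its probe set with the higher mean had 838.2 and 555.6 with the wild type siRNA, against 1168.7 and 864.3 with the mutant siRNA (log2 fold change -0.48, adjusted p = 0.204). The other had 331.9 and 259.4 against 169.0 and 121.2, at 1.11 (standard error 0.33, adjusted p = 0.0398). No direction can be given for this gene.

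No potassium channel gene was called among the 7 tested, and 1 had an unadjusted p under 0.05, Kcna4. This gene of a fast inactivating voltage-gated channel had 120.5 and 123.4 with the wild type siRNA, against 22.0 and 2.7 with the mutant siRNA. The wild type siRNA arrays lay just above the array median, and both mutant siRNA arrays below the 25th percentile, where MAS5 signals are close to background. The log2 fold change of 4.06 (standard error 1.58, 95% interval 0.46 to 7.67, adjusted p = 0.0884) thus has no established size. It passed with signals raised to the 25th percentile (2.15, adjusted p = 0.0298) and with that percentile as a pseudocount (1.96, adjusted p = 0.0199). Kcna4 entered the test only through the wild type siRNA arrays, so its difference was favoured by the filter and these values lend it no support. Kcnmb4, an auxiliary subunit of the large conductance calcium-activated channel, had 489.5 and 319.8 against 308.5 and 371.7, at 0.30 (95% interval -0.33 to 0.94). Kcnd1, Kcnh3, Kcnj11, Kcnn3 and Kcne2 were between -0.62 and 0.64, with signals between 59.9 and 195.7 on all arrays.

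**Figure D3:**
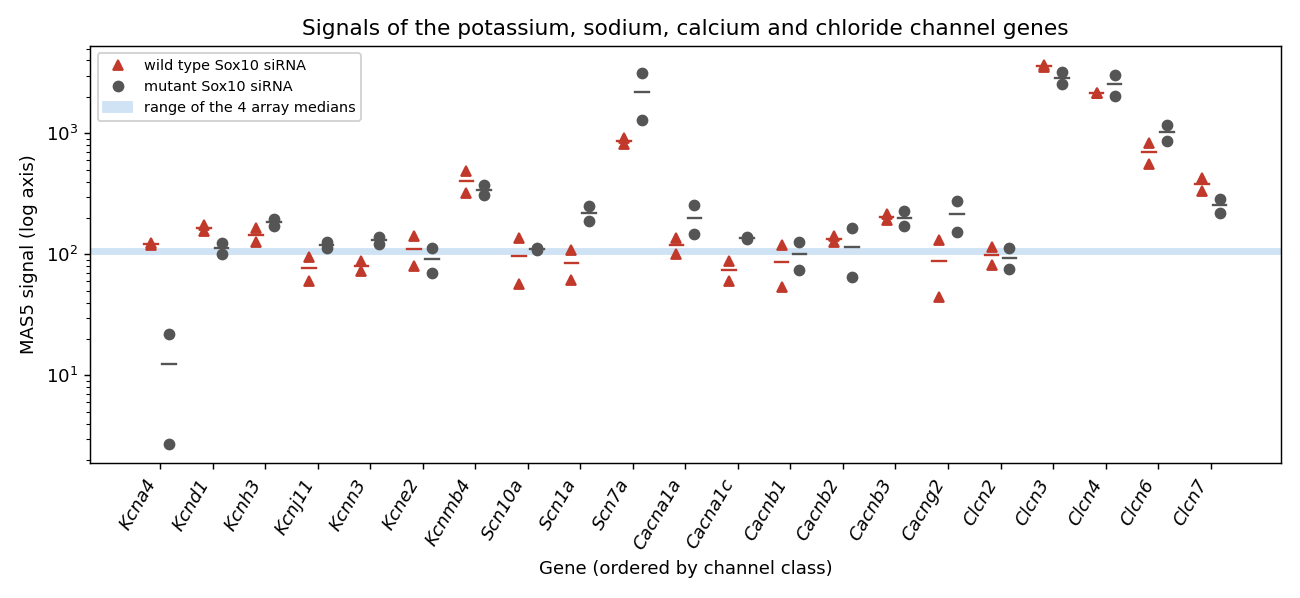
MAS5 signal (log axis) of the 21 potassium, sodium, calcium and chloride channel genes tested, on each array, with symbols, lines and band as for the TRP genes. Many of them lie near the band of the array medians. Scn7a has mutant siRNA signals of 3121.9 and 1300.8 above wild type siRNA signals of 917.4 and 814.2, and Kcna4 has mutant siRNA signals of 22.0 and 2.7.

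That a gene did not pass does not show that it was unchanged. Of the 26 genes without a call, 6 had a 95% interval within a 2-fold change in either direction: Clcn3, Clcn4, Kcnmb4, Cacnb3, Trpm4 and Trpm7. For the other 20 a change of 2-fold or more lies within the interval.

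**Figure D4:**
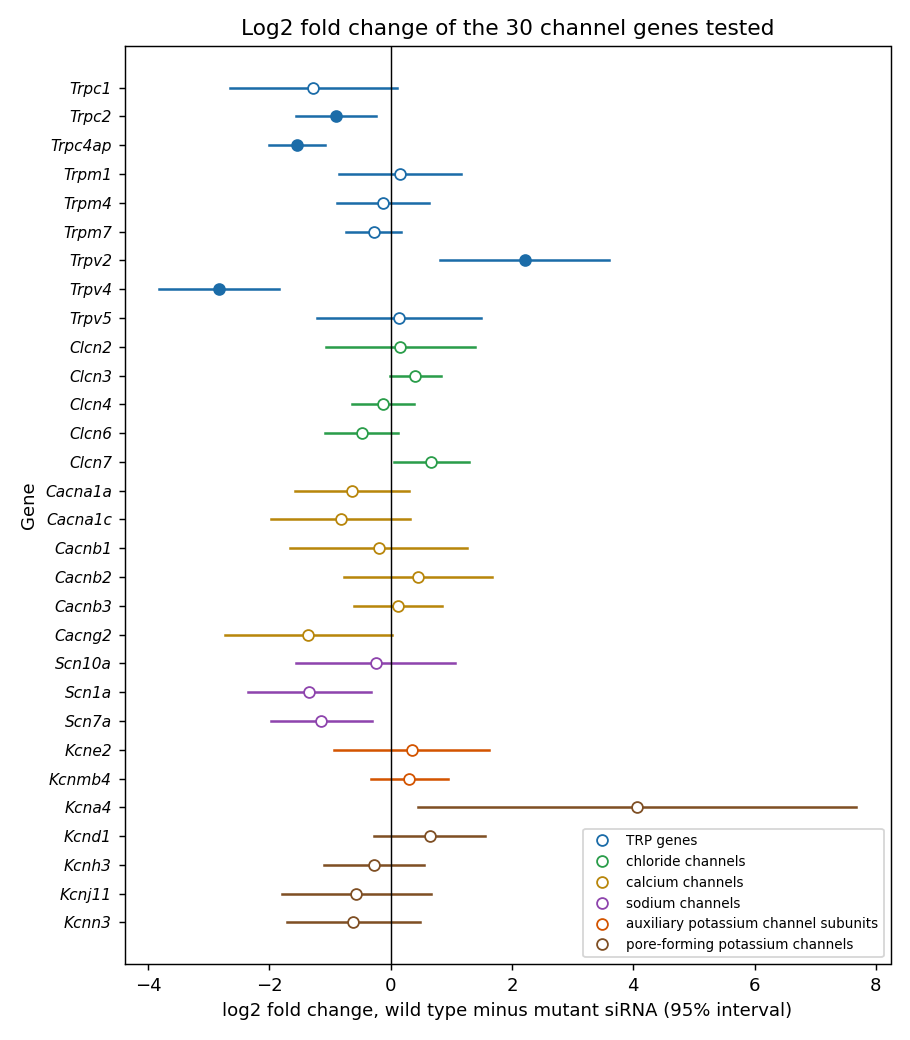
Log2 fold change, wild type minus mutant siRNA (x axis), of the 30 channel genes by class, with 95% intervals. Filled points are called at an adjusted p under 0.05, open points are not. Trpv4 at -2.83, Trpc4ap at -1.55, Trpc2 at -0.90 and Trpv2 at 2.21 are filled, and the interval of Kcna4 runs between 0.46 and 7.67.

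Channel genes outside these symbols were also counted. Of 84 listed, 37 were tested, of which 7 were lower and 5 higher, 32.4% in all, against the 28.0% of all genes. The median log2 fold change was 0.14, against 0.20. Lrrc8c, a subunit of volume-regulated anion channels, had 149.5 and 355.7 with the wild type siRNA, against 909.9 and 1278.9 with the mutant siRNA (log2 fold change -2.15, standard error 0.40, adjusted p = 0.00808). With mutant siRNA replicate 2 left out the adjusted p was 0.0510. Its partner Lrrc8b had 1107.4 and 1348.7 against 3017.3 and 2855.6 (-1.19, adjusted p = 0.00530). Ano4, of the anoctamin family, had 83.4 and 63.0 against 330.7 and 301.1 (-2.04, adjusted p = 0.00750), and Itpr3, a calcium release channel of the endoplasmic reticulum, had 503.9 and 435.7 against 2340.7 and 1056.0 (-1.67, adjusted p = 0.0120). Panx1, a channel that releases ATP, was higher, with 256.6 and 199.2 against 67.3 and 70.8 (1.79, adjusted p = 0.0172). Ano4 passed the filter only through the mutant siRNA arrays, and Panx1 only through the wild type siRNA arrays. For both a difference was favoured by the filter, and the counts of this list include them. The calls of Ano4 and Itpr3 were lost without mutant siRNA replicate 1 (adjusted p = 0.0672 and 0.0535). That of Ano4 was also lost without mutant siRNA replicate 2 (adjusted p = 0.0501), and that of Panx1 without that array, without mutant siRNA replicate 1 or without wild type siRNA replicate 1 (adjusted p = 0.0524, 0.0548 and 0.102).

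Of 50 listed genes of channel anchors, regulators and ion transport, 19 were tested, of which 5 were lower and 2 higher, 36.8% in all, again against 28.0% of all genes, with a median log2 fold change of -0.02. Slc12a7, a cotransporter of potassium and chloride, had 438.6 and 488.8 with the wild type siRNA, against 1547.1 and 1156.1 with the mutant siRNA (log2 fold change -1.45, adjusted p = 0.00494). Sgk1, a kinase that raises the surface level of several channels, had 6034.2 and 6005.7 against 2524.2 and 2521.5 (1.33, adjusted p = 0.00209), and Nedd4l, a ubiquitin ligase that removes sodium channels from the surface and is itself a target of Sgk1, had 474.5 and 606.2 against 1223.0 and 1273.2 (-1.14, adjusted p = 0.00929). The scaffold gene Dlg4 was at -1.32 (adjusted p = 0.0193), and Epb41l3, a membrane anchor, at 1.25 (adjusted p = 0.0105). The calls of Nedd4l and Dlg4 were lost without mutant siRNA replicate 1 (adjusted p = 0.0521 and 0.0789) and without mutant siRNA replicate 2 (adjusted p = 0.0541 and 0.117).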

How the data were processed

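Total RNA of RT4D6 cells was hybridised to 4 Affymetrix Rat 230 2.0 arrays. The authors deposited intensity values, 1 MAS5 signal per probe set, with a 2% trimmed mean of 500.2 on every array; their median normalization and detection calls were not used here. Platform annotation gave a single symbol to 20826 of 31042 probe sets, several to 436 and none to 9780; 57 controls were left out, and 1 probe set shared by Trpv1 and Trpv4 was not used. Log2 signals were centred on array medians. The 16125 probe sets at or above the median on at least 2 arrays were fitted with limma 3.58.1 in R 4.3.3 (intensity trend, Benjamini-Hochberg), checked on simulated arrays. The median log2 fold change of all probe sets was 0.13, against 0.05 as deposited and 0.08 after quantile normalization. Members and lists were chosen with earlier results of these data known. Named were members called, of the others the 8 with the highest mean and the 6 with the largest change, the 5 largest calls of each further list, and Sox10. Alternatives changed scaling, low signals, filters, variance model, test, block, probe set and arrays. Coordinates and promoters are RefSeq's. Tables and plots used Python 3.11.15 with pandas 2.3.3 and matplotlib 3.10.9.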

Additional observations from a re-analysis of the deposited data

How the results depend on the processing

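The 4 calls rest on 2 arrays a group and on the moderated test, and 3 of them are of genes in the dimmer 50%. Lower and higher members numbered 3 and 1 as reported. Lower members were 5 with the signals as deposited, with signals raised to the 25th percentile and with the filter on the mean, and between 2 and 5 with an array left out. Higher members were 2 with signals raised to the 25th percentile, with it as a pseudocount and with the second probe set of each gene, which brought in Clcn6. They were 0 with the filter on all 4 arrays, which drops Trpv2 and Trpv4 from the test, and without the intensity trend, and between 0 and 1 with an array left out. The methods' t-test called 0 members either way after Benjamini-Hochberg adjustment, where it called 2 of all 16125 probe sets. At the p of 0.05 without adjustment 2 of the 30 members were lower, Kcnn3 and Trpc4ap, and none higher. At that p it took 3830 of all 16125 probe sets, a count of probe sets and not of genes. The study ran its t-test only after a filter on detection and on a fall of more than 2-fold, which was not repeated here. Kcnn3 passed only through the mutant siRNA arrays, so its difference was favoured by the filter. The t-test called 0 of the 37 further channel genes and 0 of the 19 anchors, regulators and transporters (8 and 6 unadjusted). Further channel genes called, 12 as reported, were 5 without the trend and between 3 and 12 with an array left out, and the anchors, 7 as reported, between 3 and 8. With arrays left out, the log2 fold change of Clcn4 lay between -0.42 and 0.18 and that of Trpm4 between -0.49 and 0.23, where it was 0.02 without wild type siRNA replicate 2. For the named genes, 324 of the values under an alternative kept their direction and side of the threshold, 37 lost a call, 18 gained one and 3 changed sign. The study describes pairs of cell samples, but no label ties them to the replicate numbers, and deviations of same-numbered arrays correlated at 0.141. With the replicate number as a block 6 members were lower and 1 higher, with Scn7a (adjusted p = 0.00288), Scn1a (0.0374) and Cacng2 (0.0392) beside the other 4, while 14.0% of all genes were lower and 24.5% higher. The cause of these shifts was not tested.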
